A study of Mus musculus with 8 samples.

Results

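The genes described here are Yy1, which encodes a DNA-binding zinc finger protein, and 9 genes of the Polycomb repressive complexes: Ezh1, Ezh2, Eed, Suz12, Rnf2, Ring1, Bmi1, Cbx2 and Scmh1. They were chosen by symbol with the differences between mutant and control arrays already known. Their calls in that comparison are therefore given as a description and support nothing further. All 10 symbols were found, on 30 of the 45037 probe sets tested, and these are all the probe sets that the platform annotation gives to exactly 1 of these genes. The arrays hold RNA of round spermatids, the haploid cells that follow meiosis, purified from BrdtΔBD1 mutant mice and from control mice, both of strain 129 Sv/Ev and 2 to 4 months old. BrdtΔBD1 is an allele of the testis-specific chromatin reader Brdt without its first bromodomain. The labels call the other animals controls with no further genotype and do not say whether the mutants are homozygous. Each of the 4 mutant and 4 control arrays was made from a pool of 7 animals. The cells were enriched by sedimentation through albumin and stained with propidium iodide to judge purity, for which the labels give no value. P-values thus measure the spread between pools.

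Polycomb proteins keep developmental genes silent through chromatin. Polycomb repressive complex 2 (PRC2) methylates histone H3 through its catalytic subunit, Ezh2 or Ezh1, with Suz12 as scaffold and Eed as the subunit that binds the methylated tail. Polycomb repressive complex 1 (PRC1) attaches ubiquitin to histone H2A through the RING finger proteins Rnf2 and Ring1. Bmi1 is a RING partner of theirs, Cbx2 brings the chromodomain that reads methylated H3, and Scmh1 is a SAM domain protein that associates with PRC1. YY1 both activates and represses promoters and is the mammalian relative of the fly protein that brings Polycomb complexes to DNA. In the male germ line Polycomb complexes act in spermatogonia and through meiosis.

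Values are log2 intensities normalized by the authors. Round spermatid markers were bright on every array, with a list mean of 12.8 to 13.1 in control and 12.9 to 13.3 in mutant arrays. The brightest Brdt probe set read 12.08 ± 0.25 in control and 10.67 ± 0.33 in mutant arrays (SD, n = 4 each), but its position with respect to the deletion is unknown here, and it does not check the labels. Markers of Sertoli cells, the somatic support cells of the tubule, had a list mean of 5.21 to 6.06 in control and 6.21 to 7.81 in mutant arrays, and 20 of 21 had a higher mean in mutant arrays, of which 6 rose, while 5 of the 21, among them Amh, Fshr and Sox9, were near the floor in both groups. Spermatocyte markers averaged 9.16 to 9.51 in control arrays and 9.99, 10.15, 9.44 and 9.24 in mutant arrays 1 to 4, with 0 of 17 past the threshold (limma; unadjusted p under 0.05 for 5 of higher and 2 of lower mean). Spermatogonium markers had a list mean of 4.97 to 5.36 in control and 5.65 to 6.20 in mutant arrays. Of the 13, 12 were higher on average and 1 rose past the threshold (limma; unadjusted p under 0.05 for 6 of higher and 1 of lower mean). Near the floor in both groups were 5 of the 13. All 5 measured Leydig cell markers were near the floor, as were 8 of 11 of peritubular, vascular and blood cells, of which 1 rose. Gapdh controls gave a 3' signal that exceeded the 5' signal by 1.68 and 2.05 (log2) on control arrays 1 and 3 and by 0.33 to 0.94 on the other 6 arrays, a measure of RNA quality. In such bulk samples fewer cells of a type and less RNA per cell cannot be told apart.

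Of the 30 probe sets, 2 were higher in mutant arrays past an adjusted p of 0.05 (limma, adjusted over all probe sets) and 0 were lower. One reads Yy1 and the other Rnf2. Over the whole array 0.717% of probe sets were called higher and 0.702% lower. The unadjusted p was under 0.05 for 9 that were higher and 2 that were lower, beside 8.43% and 6.69% of all probe sets. The 2 groups of arrays were fully apart for 7 probe sets that were higher and 1 that was lower, beside 4.73% and 4.75% of all probe sets. The replicate number was taken to pair the arrays, since same-numbered arrays deviated together from their group means. With this number as a block 5 passed, all of them higher: the former 2, the brightest of Ezh1 and 2 of Suz12. That block called 3.92% of all probe sets higher and 2.5% lower. Without control arrays 1 and 3, 0 of the 30 passed, in a fit that called only 35 of all 45037 probe sets. A mean under 4 in both groups, called near the floor here, was found for 15 probe sets, 1 of the 2 called ones among them. Each of the 10 genes had at least 1 probe set with a mean of 4 or more in at least 1 group. For Cbx2 that held in mutant arrays only (4.13 against 3.53 in control arrays). The same was true of the dim Yy1 probe set 1435824_at (4.10 against 3.86). The median log2 difference was 0.10 over the 30 probe sets, beside -0.03 over all probe sets.

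**Figure D1:**
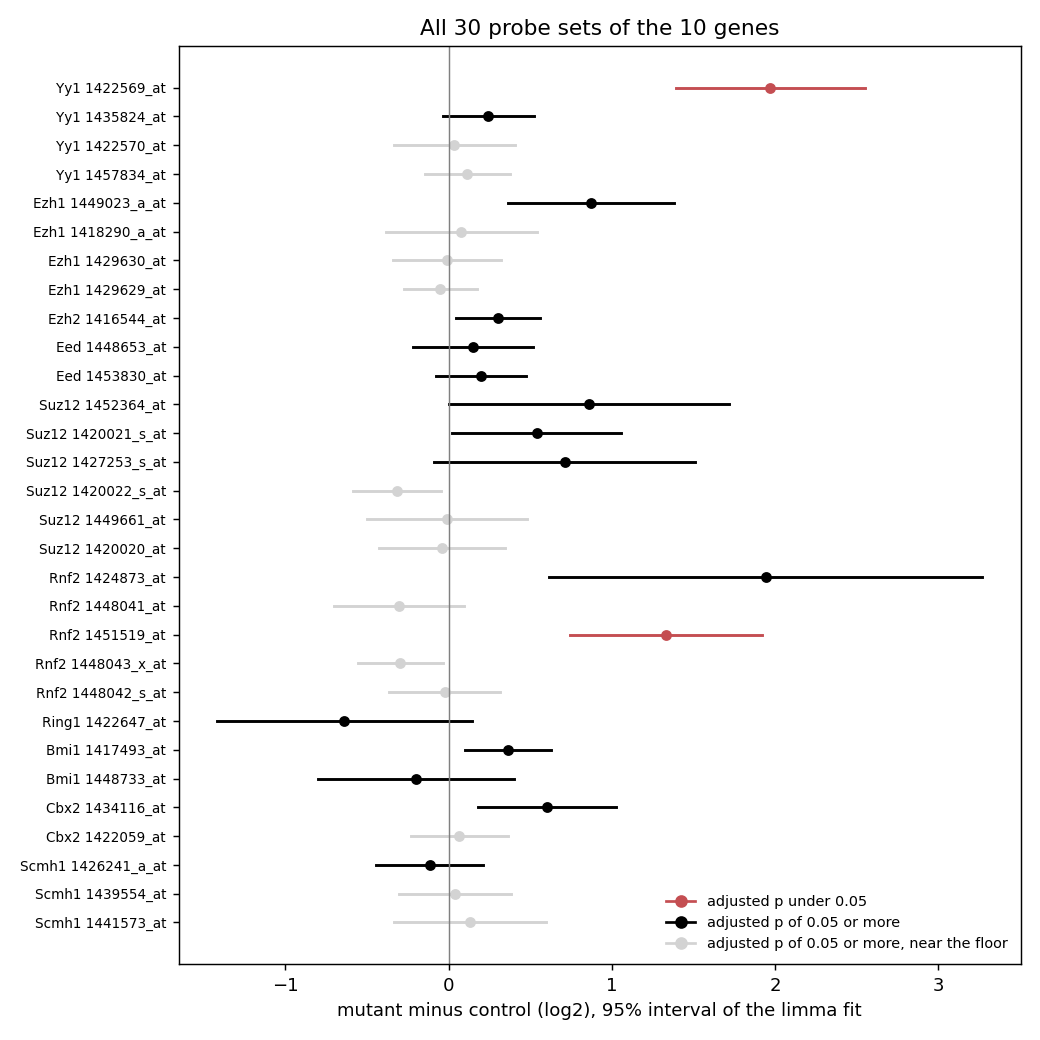
Mutant minus control difference (log2) of all 30 probe sets of the 10 genes, ordered by gene and then by brightness, with the 95% interval of the limma fit (4 arrays per group). Red marks the 2 probe sets past an adjusted p of 0.05 (Yy1 1422569_at and Rnf2 1451519_at), grey those near the floor in both groups and not called, and black the others. The intervals of both Eed probe sets include 0.

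Yy1 had the smallest p of the 10 genes. Its brightest probe set, 1422569_at, read 9.19, 9.53, 8.80 and 8.58 in the mutant (arrays 1 to 4) and 6.67, 7.48, 6.74 and 7.33 in the control (arrays 1 to 4). Every mutant array lay above the highest control array. The means were 9.02 ± 0.42 and 7.05 ± 0.41 (SD, n = 4 each), a level 3.92-fold higher in mutant arrays (log2 difference 1.97, SE 0.26, adjusted p = 0.0115). It passed in all 8 fits that leave out 1 array, with adjusted p of 0.0114 to 0.0393. Leaving out both control arrays 1 and 3, the lowest of the controls, gave 1.62 and an adjusted p of 0.117, the highest of 16 alternatives, the lowest being 0.00536.

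The other Yy1 probe sets were dim. Probe set 1435824_at read 3.92 to 4.24 in mutant and 3.66 to 4.08 in control arrays, a difference of 0.24 (95% interval -0.04 to 0.52, adjusted p = 0.405). Both 1422570_at and 1457834_at were near the floor, between 2.17 and 3.06 on all arrays. The annotation gives 1422570_at the same source sequence as the bright probe set, and the 2 differ. The difference of Yy1 is thus that of a single probe set. With the mean of all 4 probe sets in its place the log2 difference at gene level was 0.59 (adjusted p = 0.0336).

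The Sertoli and spermatocyte marker means can be set beside Yy1. On mutant arrays 1 to 4 Yy1 read 9.19, 9.53, 8.80 and 8.58. The Sertoli marker mean was 7.63, 6.21, 7.81 and 7.37 on these arrays, and the spermatocyte marker mean 9.99, 10.15, 9.44 and 9.24. With the Sertoli marker mean as a covariate, where the ranges of the 2 groups are apart and the fit extrapolates, the Yy1 difference was 2.49 (SE 0.46, adjusted p = 0.102). With the spermatocyte marker mean as a covariate, a fit added after seeing the data, it was 1.67 (SE 0.25, adjusted p = 0.0323). The part of the spermatogonium markers in the Yy1 and Polycomb values was not tested. The groups do not overlap in Sertoli or spermatogonium marker means, so cell content and mutation cannot be told apart here.

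**Figure D2:**
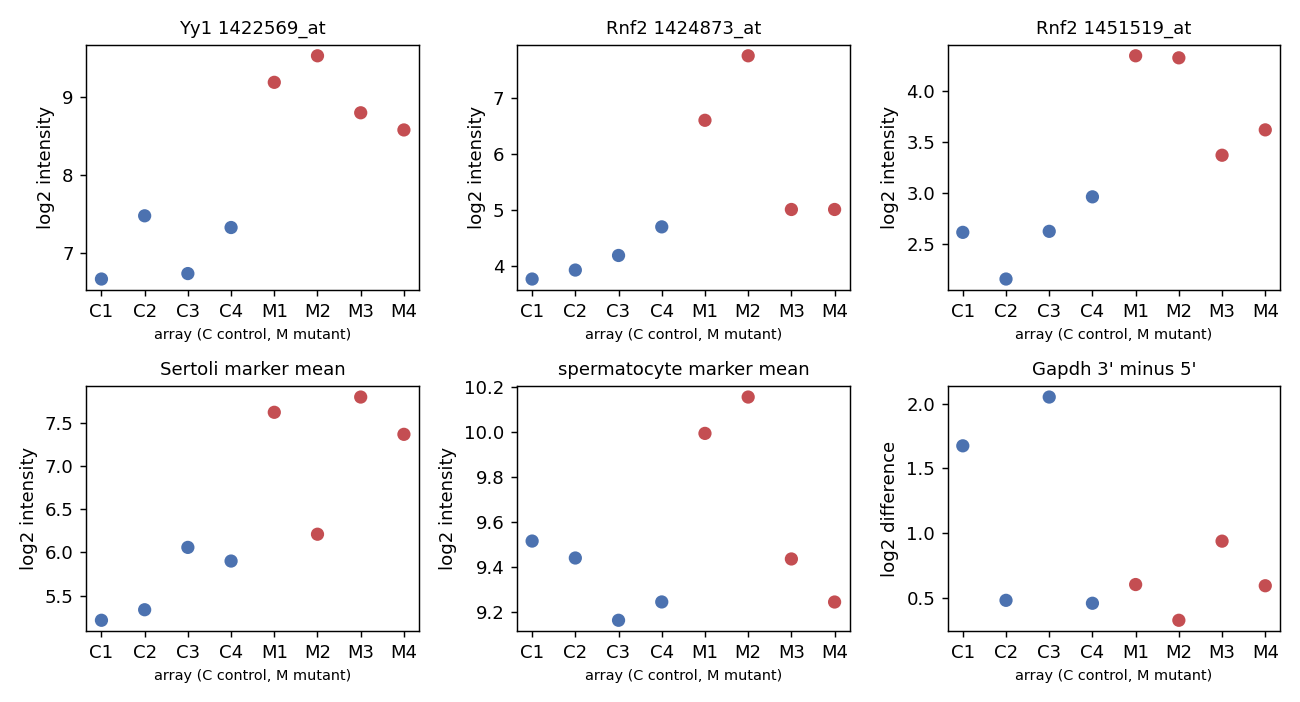
Log2 intensity of Yy1 1422569_at and of both Rnf2 probe sets that were higher in mutant arrays, on each of the 8 arrays (C1 to C4 control, blue; M1 to M4 mutant, red), beside the mean of the Sertoli cell markers, the mean of the spermatocyte markers and the excess of the 3' over the 5' Gapdh signal (panel labelled Gapdh 3' minus 5'). Yy1 is higher on all mutant arrays; both Rnf2 probe sets and the spermatocyte mean are highest on mutant arrays 1 and 2.

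Genes whose values followed Yy1 most closely were sought over the 8 arrays, by the root mean square difference of log2 values after each gene was centred on its own mean. The nearest was Rbm39, an RNA-binding splicing factor, at 0.27, followed by Sgpp1, a sphingosine-phosphate phosphatase, at 0.29, Clint1, a clathrin-interacting protein, at 0.32, Fbxo9, an F-box protein, at 0.33, and Hmgb2, a high mobility group protein, at 0.33. Rbm39 read 7.97, 7.96, 7.11 and 6.58 in mutant arrays and 5.36 to 6.0 in the controls. Since they were sought by likeness to Yy1, their difference between the groups is no finding.

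YY1 binds a short motif around ATGG, and its sites often lie close to transcription starts. The promoter windows of RefSeq (GRCm38.p6, 250 bases before to 50 after the start) were searched on both strands for AANATGGCG. It was in 2.38% of 32851 windows and in 0 of the 10 windows held for 9 of the genes above; Cbx2 had no window in the table. No match says only that these letters are not in these windows. The search was added after the difference of Yy1 was known. Of the 14452 measured genes with a window, 613 had the motif. Among these 12 rose (1.96%) and 10 fell (1.63%), beside 1.87% and 1.94% of all genes with a window, and the median log2 difference was -0.01 against -0.02. The share of genes called was thus near the background in both directions. With the replicate block 42 rose (6.85%) and 40 fell (6.53%), beside 6.8% and 5.11% of all genes with a window.

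Sites of genes called in either direction are shown so that the motif can be read in place, 4 that rose and 4 that fell, with the motif or its reverse complement in capitals, 5′ to 3′ on the strand of the gene. Pspc1 encodes a paraspeckle RNA-binding protein, Mettl23 a methyltransferase, Skap2 a cytoplasmic adaptor, Smim11 a small membrane protein, Rit1 a RAS-like GTPase, Taf5 a subunit of the general transcription factor TFIID and Ptcd2 a mitochondrial RNA-binding protein. Rbm39 is the gene nearest to Yy1 above, and the others have the smallest adjusted p in each direction, so they were chosen after their values were seen. A match is not evidence of binding.
Pspc1, chr14:56778299-56778327, minus strand: tttgaagcagCGCCATTTTgagcgttcgg
Mettl23, chr11:116843459-116843487, plus strand: gccaattgggCGCCATGTTgggaaggtcg
Skap2, chr6:52012779-52012799, minus strand: cgAAAATGGCGcggacgagct
Rbm39, chr2:156179606-156179634, minus strand: gcgacctcccAACATGGCGcccgtggaac
Smim11, chr16:92301222-92301250, plus strand: ggtgcctttcAAGATGGCGcttccgttcc
Rit1, chr3:88716853-88716881, plus strand: cgcccaccggCGCCATCTTccaggacccg
Taf5, chr19:47067752-47067780, plus strand: gctcagccgcAAGATGGCGgcgctggcgg
Ptcd2, chr13:99344790-99344818, minus strand: ccatgggagcCGCCATCTTggagcgcacc

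The values of the 4 that rose were, for Pspc1, 9.25 ± 0.33 in mutant against 8.23 ± 0.08 in control arrays, for Mettl23, 7.07 ± 0.27 against 5.46 ± 0.56, for Skap2, 5.88 ± 0.51 against 4.51 ± 0.12, and for Rbm39, 7.40 ± 0.68 against 5.66 ± 0.27 (SD, n = 4 each). Those of the 4 that fell were, for Smim11, 4.10 ± 0.10 against 5.59 ± 0.40, for Rit1, 7.42 ± 0.33 against 8.56 ± 0.19, for Taf5, 7.02 ± 0.47 against 8.79 ± 0.48, and for Ptcd2, 6.22 ± 0.13 against 7.33 ± 0.36 (SD, n = 4 each). Genes of the Polycomb pathway with the motif in a window included Hcfc1, Lcor, Scml2 and Phc3, none of which passed the threshold in the limma fit over genes.

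The 4 core PRC2 genes showed no call in the fit without a block. All 7 of their probe sets not near the floor had a higher mean in mutant arrays, several of them reading the same gene. Those near the floor, of Ezh1 and Suz12, differed by -0.31 to 0.08, most of them being lower. How many probe sets not near the floor were higher over the whole array was not counted. Ezh2, the main catalytic subunit of dividing cells, was read by a single bright probe set at 10.58, 11.06, 10.91 and 10.81 in mutant and 10.48, 10.55, 10.52 and 10.59 in control arrays. The control arrays lay close together, with an SD of 0.05, and mutant array 1 lay among them, while the other 3 mutant arrays were above all controls. The difference was 0.30 (95% interval 0.04 to 0.56, adjusted p = 0.251). Ezh1, the alternative catalytic subunit found in cells that divide little, differed more: its probe set 1449023_a_at read 6.07, 5.77, 5.48 and 5.0 in mutant and 4.99, 4.44, 4.76 and 4.64 in control arrays. The groups met at mutant array 4 and control array 1 without overlapping. The level was 1.83-fold higher (log2 difference 0.87, SE 0.22), with an adjusted p of 0.105 without and 0.0343 with the replicate block. Over its 16 alternatives the adjusted p ran from 0.0343 to 0.494, and it also passed without mutant array 4. The difference was 0.57 with the spermatocyte marker mean as a covariate (adjusted p = 0.299) and 0.22 by the mean of all 4 probe sets (adjusted p = 0.229 at gene level). The remaining 3 Ezh1 probe sets were near the floor, with differences of -0.05 to 0.08.

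Suz12, the scaffold of the complex, was read by 6 probe sets, of which 3 were above the floor and all 3 higher in mutant arrays on average. The brightest, 1452364_at, read 8.71, 9.75, 8.42 and 8.46 in mutant and 8.13, 8.68, 7.13 and 7.95 in control arrays. Its groups overlapped, since control array 2 exceeded mutant arrays 3 and 4, but within each of the 4 same-numbered pairs the mutant array was higher. The difference was 0.86 (SE 0.38), with an adjusted p of 0.327 without the block and 0.0287 with it. At gene level, with the same probe set, it was 2.37 with the Sertoli marker mean as a covariate (adjusted p = 0.0639), 0.35 with the spermatocyte marker mean (0.697) and 0.52 without control arrays 1 and 3 (0.624). It lay between 0.56 and 1.10 when 1 array was left out, the lowest being that without mutant array 2, and was 0.29 by the mean of all 6 probe sets (adjusted p = 0.311). Probe set 1420021_s_at was 0.54 higher (adjusted p = 0.310 without and 0.0341 with the block) and 1427253_s_at 0.71 higher (0.390 and 0.192). Probe sets with this s suffix may also match other transcripts. In the latter, control array 3 stood at 4.27, against 5.70 to 6.05 on the other controls. The dim 1420022_s_at was lower in mutant arrays, at 3.38 to 3.65 against 3.71 to 4.10, without overlap (difference -0.31, adjusted p = 0.252).

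Eed, which binds methylated H3, had the smallest difference of the 4 PRC2 genes by their brightest probe sets. It read 10.30, 10.19, 9.87 and 9.75 in mutant and 10.17, 9.78, 9.92 and 9.63 in control arrays, and the groups overlapped over most of their range. The difference was 0.15 (95% interval -0.22 to 0.52, adjusted p = 0.736). A dimmer probe set, 1453830_at, gave 0.20 (-0.08 to 0.48).

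**Figure D3:**
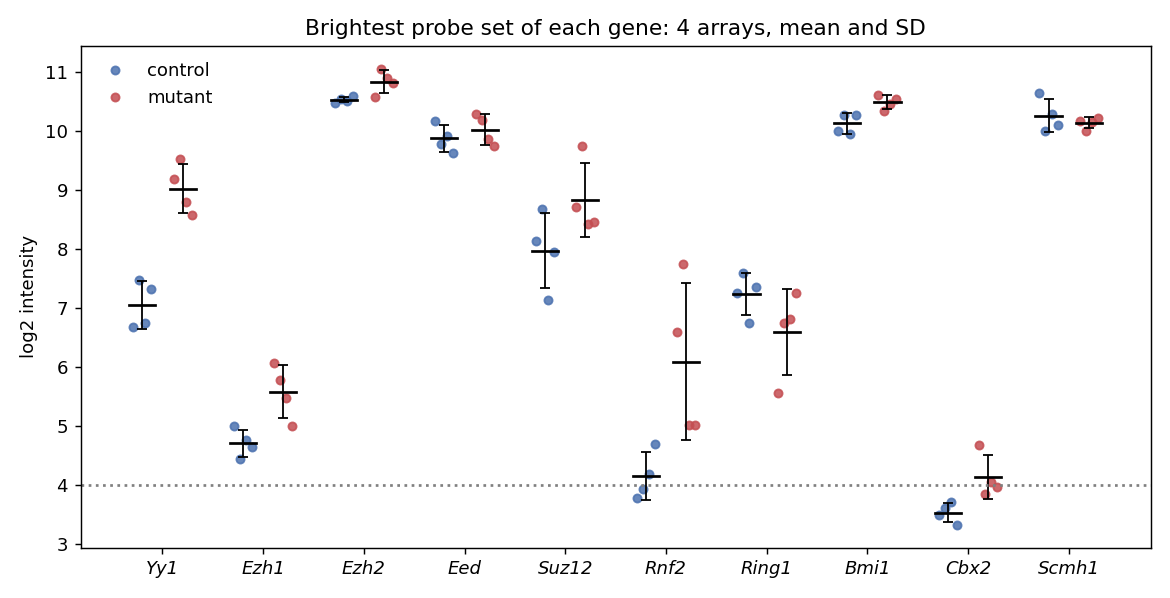
Log2 intensity of the brightest probe set of each of the 10 genes on the 4 control (blue) and 4 mutant (red) arrays, with the mean (bar) and SD (whisker); the dotted line marks the mean of 4 under which a probe set is called near the floor. Levels of different genes cannot be compared, since probes differ. Yy1 separates the groups most clearly, and Rnf2 has the widest spread within the mutant group.

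In PRC1 the brightest probe sets of the RING finger pair, Rnf2 and Ring1, had differences of opposite sign, neither past the threshold. Rnf2, the main H2A ubiquitin ligase, was read by 5 probe sets. The brightest, 1424873_at, read 6.60, 7.75, 5.01 and 5.01 in mutant and 3.77, 3.93, 4.19 and 4.70 in control arrays. All mutant arrays were above all controls, but arrays 1 and 2 were far above arrays 3 and 4. The difference of 1.94 had an SE of 0.58 and did not pass (adjusted p = 0.157, and 0.107 with the block). Probe set 1451519_at, annotated with the same source sequence, read 4.35, 4.33, 3.37 and 3.62 in mutant and 2.61, 2.15, 2.62 and 2.96 in control arrays. It was 2.52-fold higher (log2 difference 1.33, SE 0.26, adjusted p = 0.0480, and 0.0381 with the block), at a level near the floor in both groups. That call did not outlast the loss of any array: it passed in 0 of the 8 fits without 1 array (adjusted p from 0.0581 to 0.12), and its adjusted p over 15 alternatives lay between 0.0156 and 0.265. The other 3 probe sets of Rnf2 were near the floor, with differences of -0.30, -0.30 and -0.03.

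Both higher Rnf2 probe sets had their top values on mutant arrays 1 and 2, the arrays with the highest spermatocyte marker means. With that mean as a covariate, in the fit added after seeing the data, 1424873_at differed by 1.08 (SE 0.46, adjusted p = 0.414) and 1451519_at by 1.04 (SE 0.26, adjusted p = 0.143). Whether spermatocyte content had a part in the Rnf2 values was not tested. The brightest Rnf2 probe set was 3.43 higher (SE 0.98, adjusted p = 0.226) with the Sertoli marker mean as a covariate. By the mean of all 5 probe sets the Rnf2 difference was 0.53 (adjusted p = 0.129 at gene level).

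Ring1, the paralog of Rnf2, was read by a single probe set at 5.56, 6.75, 6.81 and 7.26 in mutant and 7.25, 7.60, 6.74 and 7.35 in control arrays. It was lower on average by 0.64 on the log2 scale (95% interval -1.42 to 0.14, adjusted p = 0.44). The groups overlapped and mutant array 1 was the lowest of all; without it the difference at gene level was -0.29. Whether Rnf2 and Ring1 differ from each other in their response was not tested.

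Bmi1, the RING partner known for its part in stem cell self-renewal, gave readings of opposite sign. Probe set 1417493_at read 10.62, 10.35, 10.46 and 10.55 in mutant and 9.96 to 10.28 in control arrays, just without overlap. It differed by 0.36 (SE 0.12, adjusted p = 0.176). Probe set 1448733_at read 8.44, 7.38, 8.54 and 8.40 in mutant and 8.76, 8.23, 8.46 and 8.12 in control arrays. It differed by -0.20 (SE 0.26, adjusted p = 0.793). Its groups overlapped widely, and mutant array 2 was low. A test of differences between the probe sets of a gene (limma diffSplice, F test, over 2870 genes, of which 0.906% passed) could be run on 3 of the 10 genes, those with at least 2 probe sets of a mean of 4 or more. It gave an adjusted p of 0.744 for Bmi1 and 1 for Suz12 and Eed, so 0 of 3 passed (unadjusted p of 0.114, 0.824 and 0.855).

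Cbx2, the chromodomain subunit, was dim. Probe set 1434116_at read 4.68, 3.85, 4.04 and 3.96 in mutant and 3.49, 3.61, 3.70 and 3.32 in control arrays. All mutant arrays were above all controls, with control array 3 and mutant array 2 close together. The difference was 0.60 (SE 0.19, adjusted p = 0.164) and the other probe set lay at the floor. Scmh1 was bright at 10.18, 10.01, 10.15 and 10.23 in mutant and 10.64 and 10.30 on control arrays 1 and 3, with the other 2 controls lower, the highest of them at 10.10. The mutant arrays fell within the range of the controls, and the difference was -0.12 (95% interval -0.44 to 0.21, adjusted p = 0.777). The 2 dim probe sets of Scmh1 gave 0.04 and 0.13.

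Other genes of the pathway, listed by their known membership and not by how they moved, were read at gene level, with the brightest probe set of each gene. Over 18193 genes 1.86% were called higher and 1.85% lower. At that level 1 of the 10 genes above, Yy1, was called, and 3 with the replicate block. Of 82 measured genes in 5 lists 1 rose and 1 fell, an unadjusted p under 0.05 was reached by 12 of higher and 8 of lower mean (11% and 9.16% of all genes), and the median log2 difference was 0.05 beside -0.02 over all genes. With the replicate block 9 rose and 5 fell, where 6.6% of all genes rose and 4.94% fell. The share of calls without the block is near the background. Counts with the block in the lists below are to be read against these 2 shares.

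The gene that fell was Bcorl1, a corepressor of the BCL6 corepressor family found in a variant PRC1. It read 4.11, 3.99, 4.26 and 4.13 in mutant and 6.41, 5.26, 5.65 and 5.66 in control arrays. Every mutant array was below every control array, and the level was 3.08-fold lower (log2 difference -1.62, SE 0.22, adjusted p = 0.00771 over genes). It passed in all 8 fits without 1 array and without control arrays 1 and 3 (adjusted p = 0.0408), and missed the threshold with the Sertoli marker mean as a covariate (-1.63, SE 0.44, adjusted p = 0.143). Under its alternatives the adjusted p lay between 0.00112 and 0.143. A dim second probe set showed a difference of -0.01.

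The gene that rose was Lcorl, a relative of the PRC2 accessory protein gene Lcor. It read 7.08, 7.42, 6.74 and 6.07 in mutant and 5.33, 4.99, 4.62 and 5.69 in control arrays. The groups did not overlap, and the level was 3.17-fold higher (log2 difference 1.67, SE 0.32, adjusted p = 0.0291). It passed in 3 of the 8 fits without 1 array, those without mutant array 2, mutant array 4 or control array 4, and its adjusted p under the alternatives lay between 0.0108 and 0.192. Averaged over its probe sets, Lcorl differed by 0.40 (adjusted p = 0.0705). A dimmer Lcorl probe set differed by 1.02 without overlap between the groups (adjusted p = 0.107 over probe sets).

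In the list of other PRC2 and accessory genes 8 of 11 were higher in mutant arrays, beside 8427 of all 18193 genes, with a median of 0.40. With the replicate block, which called 6.6% of all genes higher, 4 of the list rose. Besides Lcorl these were Aebp2, a zinc finger cofactor (log2 difference 1.37, adjusted p = 0.071 without and 0.00971 with the block), and the histone-binding proteins Rbbp4 (0.60, 0.066 and 0.0259) and Rbbp7 (1.84, 0.0834 and 0.0182). They are named after their values were seen, and the probe sets of Rbbp4 and Rbbp7 are of a type that may also bind other transcripts. In the PRC1 list 15 of 27 were higher and 12 lower, with a median of 0.13. With the block 2 rose, Tfdp1 (difference 1.59, adjusted p = 0.0802 without and 0.0223 with the block) and Fbrs (0.89, 0.189 and 0.0389). With it 2 fell, Bcorl1 and Pcgf1 (-0.60, adjusted p = 0.162 without and 0.04 with the block). Tfdp1, Fbrs and Pcgf1 are named after their values were seen. Among the YY1 relatives and genes of the INO80 remodeler, of which YY1 is a subunit, 0 of 18 passed (limma; unadjusted p under 0.05 for 1 of higher and 1 of lower mean). The helicase gene Ruvbl1 differed by -0.66 (adjusted p = 0.126 without and 0.0297 with the block) and Ino80c, a subunit, by 0.73 (0.216 and 0.0534).

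None of the genes that reverse or oppose Polycomb marks passed in this fit. Of 13 genes of the H2A deubiquitinase complex and its partners 0 passed (limma; unadjusted p under 0.05 for 0 of higher and 3 of lower mean), and the forkhead genes Foxk2 and Foxk1 differed by -0.55 and -1.03. With the block these 2 fell (adjusted p = 0.0382 and 0.0169, against 0.125 and 0.135 without it). Of 13 antagonists, H3 demethylase and trithorax genes 0 passed without the block (limma; unadjusted p under 0.05 for 3 of higher and 0 of lower mean). Rbbp5, a subunit of H3 methyltransferase complexes, read near the floor and differed by 0.51 (adjusted p = 0.0946 without and 0.0254 with the block). Setd2, an H3 methyltransferase, differed by 0.86 (0.184 and 0.114). With the block 3 of the 13 rose, beside 6.6% of all genes: Rbbp5, the H3 demethylase gene Kdm6b (difference 0.65, adjusted p = 0.46 without and 0.0192 with the block) and Men1, a trithorax complex subunit (0.62, 0.197 and 0.0327). Kdm6b and Men1 are named after their values were seen.

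**Figure D4:**
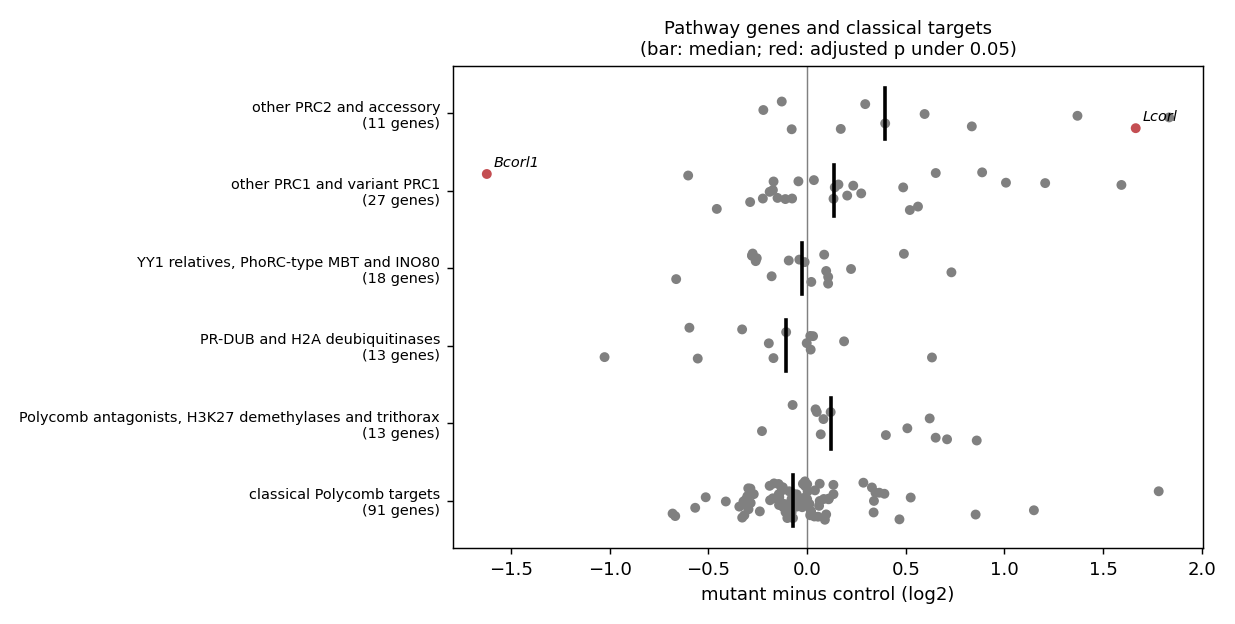
Mutant minus control difference (log2) of each measured gene of the 5 pathway lists and of the classical Polycomb targets, 1 point per gene, with the median of each list as a bar; the vertical position within a list is random. Lcorl and Bcorl1 (red) are the genes past an adjusted p of 0.05, and the median of the 91 targets is -0.07.

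The classical targets of Polycomb repression, Hox genes and other regulators of body plan and organ formation, were mostly read near the floor on these arrays. Of 91 measured, 76 were near the floor in both groups. The limma fit called 0, the unadjusted p was under 0.05 for 5 of higher and 5 of lower mean, and the median log2 difference was -0.07. With the replicate block 1 rose and 3 fell, beside 6.6% and 4.94% of all genes. Besides Gata2, those that fell were Hoxa4 and Pax6, both named after their values were seen. Hoxa4 differed by -0.57 (adjusted p = 0.214 without and 0.0259 with the block). Pax6, near the floor, differed by -0.51 (0.199 and 0.0495). The target that rose was Wt1 (difference 1.15, adjusted p = 0.0902 without and 0.0427 with the block), named after its value was seen, which is also on the list of Sertoli markers whose mean was higher in mutant arrays. Gata2, a hematopoietic transcription factor gene, read 8.48, 8.25, 8.75 and 8.85 in mutant and 9.23, 8.92, 9.58 and 9.33 in control arrays (difference -0.68, SE 0.18, adjusted p = 0.0776, and 0.0166 with the block). The groups did not overlap. Hoxa3 read 5.41 to 5.60 in mutant and 4.76 to 5.36 in control arrays, a difference of 0.53 (adjusted p = 0.0777). That was its brightest probe set, one with the s suffix. Its other probe sets differed by 0.19, -0.16 and -0.18, both lower ones being near the floor. By the mean of all its probe sets the difference was 0.09 (adjusted p = 0.602 at gene level).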

How the data were processed

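RNA of purified round spermatids was hybridised to 8 Affymetrix arrays, 4 mutant and 4 control. The authors deposited 1 normalized log2 intensity per probe set; per the submitters' processing notes GCRMA and limma were used, with no version or role stated. The genome build behind the probe sets is not given in the sources used here. Groups and replicate numbers were read from the sample titles. Of 45101 probe sets 64 controls were left out; 34945 had 1 gene in the platform annotation, 932 several and 9160 none. Differences were tested on 45037 probe sets, and on 18193 genes by the brightest single-gene probe set, with limma 3.58.1 in R 4.3.3 (group term only, Benjamini-Hochberg adjustment over all features, threshold 0.05). The code was tested on simulated data. Arrays report no read depth, so their number limits the precision. Same-numbered mutant and control arrays deviated together from their group means (r = 0.39, 0.49, 0.65 and 0.55 over the probe sets whose mean reached 4), so the numbers were taken to pair the arrays.

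Alternatives were the replicate block, leaving out each array, leaving out control arrays 1 and 3, marker means as covariates, array weights, a trended robust variance, median centring, a mean of at least 4 and the mean of a gene's probe sets. Differences between a gene's probe sets were tested with diffSplice. The genes and lists were chosen with earlier results of these data known. Named from the lists are the genes past the threshold, at most 6 a list, or else the 2 with the smallest p, and, for Yy1, the 5 nearest of 6906 genes with a mean of at least 5. Also named are list genes that passed only with the replicate block, chosen after their values were seen, and genes with the motif in a window. Levels of different probe sets were not compared.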

Additional observations from a re-analysis of the deposited data

Results flagged for a closer look

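Of 60 combinations of a probe set and a group examined for a sample far from the other 3, 2 stood out by the gap to the nearest sample relative to the range (Dixon's test at the 95% level), where chance alone marks about 1 in 20 groups. On Suz12 1420021_s_at mutant array 1 read 7.02, above the other mutant arrays at 6.21 to 6.32 (gap over range 0.863). On Bmi1 1448733_at mutant array 2 read 7.38, below the other mutant arrays at 8.40 to 8.54 (0.884).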

How the results depend on the processing

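Without alternatives, 639 probe sets, 2 of them of the 10 genes, and 675 genes were called, among them 1 of the 10 genes, 2 pathway genes and 0 targets (limma), and 26 genes differed between probe sets. The replicate block gave 2894, 5, 2100, 3, 14, 4 and 169 in that order, and changed no call of the 10 genes' probe sets other than those given with the results. Without control arrays 1 and 3 there were 35 probe sets, 0 of the 10 genes, 68 genes, 0 of the 10, 1 pathway gene and 2 genes with differing probe sets. The Sertoli covariate left 2 probe sets, 0 of the 10 genes, 30 genes, 0 of the 10 and 0 pathway genes, and the spermatocyte covariate, added after seeing the data, 399, 1 and 422, with 1 target. Array weights gave 1339, 1, 1655 and 2, with 8 pathway genes and 2 targets. Median centring gave 1117 probe sets, 1034 genes, 2 of the 10 and 4 pathway genes, the trended robust variance 4 pathway genes, and a mean of at least 4 gave 1 member probe set and 4 pathway genes. A mean of at least 5 left 17 genes with differing probe sets. Leaving out 1 array gave 189 to 1323 probe sets, 1 to 2 of them of the 10 genes, 199 to 1131 genes, 1 to 2 of the 10, 1 to 5 pathway genes, 0 to 3 targets and 10 to 36 genes with differing probe sets. Some differences changed sign. That of Scmh1 was -0.20 to 0.0099 without 1 array, the highest being that without control array 1. It was 0.0935 without control arrays 1 and 3 and 0.0182 by the mean of its probe sets. That of Eed was -0.0627 with the spermatocyte covariate. The larger difference of Foxk2, -0.55 without alternatives, was 0.057 with the Sertoli covariate. The causes of these changes were not tested. With 4 pools a group, and 15 of 30 probe sets near the floor, small changes are not detectable here.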
